A study of Arabidopsis thaliana with 12 samples.

Results

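DICER-LIKE 4 (DCL4) cuts long double-stranded RNA into small interfering RNAs of 21 nt. Here 15 loci with fewer 21-nt reads in a DCL4 mutant are described by their 21-nt and 22-nt reads. They were chosen from 32420 gene loci by the deposited 21-nt group means. The rule asked for at least 20 normalized reads in Col-0 on both media, and for a dcl4-2 mean of at most the Col-0 mean divided by 4 on each medium. Of all loci 30 met these levels, and 15 of these were left out by locus name, among them the pentatricopeptide repeat (PPR) genes with names starting AT1G62 and AT1G63. A normalized read is a read divided by the size factor of its library. Since 21-nt reads of both genotypes chose the loci, their 21-nt fall in dcl4-2 is a description and not a finding. The 22-nt reads were not used by the rule.

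The 4 groups were dcl4-2 on MS, dcl4-2 on MS-N, Col-0 on MS and Col-0 on MS-N. MS is a standard plant medium, and MS-N is the same medium lacking nitrogen. All plants were whole Arabidopsis thaliana seedlings of 10 days, Col-0 is the wild type, and dcl4-2 is a mutant allele of DCL4. Each group had 3 biological replicates, which made 12 small RNA libraries. Values of single libraries were recovered from the deposited group means and are numbered by size factor, largest first, so that they match neither the replicate numbers nor each other between 21 and 22 nt. Library totals ran from 4515437 to 7270637 reads. As a check of the labels, tasiRNAs, which are made by DCL4, held 1128 ± 147 rpm at 21 nt in dcl4-2 on MS, against 26379 ± 3900 rpm in Col-0 on MS (SD, n = 3 each), and 2675 ± 175 rpm in dcl4-2 on MS-N, against 45790 ± 4749 rpm in Col-0 on MS-N. A read at a locus is small RNA from it, not its messenger RNA. In whole seedlings, fewer cells of a type and less RNA per cell cannot be told apart.

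In plants, a messenger RNA cut by a microRNA can be copied into double-stranded RNA by RDR6, and DCL4 then dices it into secondary siRNAs of 21 nt. Transcripts that fold back into long, nearly paired hairpins are another source of DCL4 products. DCL2, a related enzyme, makes siRNAs of 22 nt and can work on the same double-stranded RNA where DCL4 is absent. DCL1 makes most microRNAs.

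The mature microRNAs of the single microRNA gene among the loci, MIR822 (AT5G03552), are shown because it makes up the most abundant 21-nt source per length. Its precursor is a long hairpin, and MIR822 is known as a microRNA gene that depends on DCL4. Capitals mark the seed, bases 2 to 8, and sequences are from RefSeq on TAIR10.1 (minus strand, chr5:897287-897307 and chr5:897067-897087), written 5′ to 3′.
miR822-5p: uGCGGGAAgcauuugcacaug
miR822-3p: uGUGCAAAugcuuucuacagg
Bases 1 to 333 of the 337 bases of the locus aligned to their own reverse complement, with 74.4% identity over 355 positions. These positions include gaps and run across both arms of the hairpin. The 2 mature sequences have different seeds.

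Further microRNAs are shown with the sites they matched in members, since a site is where secondary siRNA production is known to start. The 13 coding members were searched with 350 mature Arabidopsis microRNA sequences, and a site was kept at a penalty of at most 4, where a mismatch counted 1 and a G:U pair 0.5, both doubled at microRNA positions 2 to 13. In each microRNA the capitals mark the seed. In each site they mark bases in A:U or G:C pairs with the microRNA, and G:U pairs stand in small letters. AT3G23690 codes for a basic helix-loop-helix (bHLH) transcription factor and is a known target of miR393, and miR393a-5p and miR393b-5p share 1 mature sequence. Within 3000 bases of this gene lies an inverted repeat of 92.1% identity over 808 bases, at chr3:8526365-8527167 and chr3:8527527-8528333. The arms of this repeat lie outside the gene, and any part of it in the reads was not tested. The miR393 site lies in the coding sequence on the minus strand at chr3:8530587-8530608.
miR393a-5p: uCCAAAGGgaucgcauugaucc
AT3G23690 site: GGgUCAgaGCGAUCCCUUUGGc
AT5G16640, a PPR gene, had overlapping sites for miR161.2 and miR161.1 and another for miR400, all in coding sequence on the plus strand, at chr5:5461797-5461817, chr5:5461788-5461808 and chr5:5462009-5462029.
miR161.2: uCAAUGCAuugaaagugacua
AT5G16640 site for miR161.2: UAuUuACUUUCAAUGCgUUGA
miR161.1: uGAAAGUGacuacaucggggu
AT5G16640 site for miR161.1: ACCCuGAUGUAuUuACUUUCA
miR400: uAUGAGAGuauuauaagucac
AT5G16640 site for miR400: GUaACUUAUAgUAuUCUCAUu
The penalties were 3.0 for miR393, 2.5 for miR161.2, 3.5 for miR161.1 and 4.0 for miR400. Of 27444 coding genes, 0.0182% held a site for miR393, 0.0802% for miR161.2, 0.0474% for miR161.1 and 0.0875% for miR400. A site for any of the 350 sequences was found in 2 of 13 coding members (15.4%), against 3239 of all coding genes (11.8%). A match of letters is a description and not a cut site, and the other 11 coding members had no match within these limits.

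The 15 loci fell into 4 kinds by annotation. Repeat protein genes were 4, with the PPR genes AT1G12620, AT1G12775 and AT5G16640 and the neighbouring AT1G12300, which RefSeq calls a tetratricopeptide-like (TPR-like) gene. PPR proteins bind RNA in mitochondria and chloroplasts. Other coding genes with a named product were 6. Among them were the UDP-glycosyltransferases AT2G18570 and UGT84A3 (AT4G15490), which attach sugars to small molecules, and GAE6 (AT3G23820), an epimerase that makes a sugar for pectin. The rest of the 6 were the protease gene DEG6 (AT1G51150), the bHLH gene AT3G23690 and the leucine-rich repeat gene AT4G18670. Uncharacterized coding genes were 3, AT1G13360, AT1G25025 and AT1G25180. The transcribed pseudogene AT2G32291 and MIR822 made up the rest. Of 13 coding members 10 had a single exon (76.9%), against 20.6% of 26712 coding genes in the table, and this comparison was not tested.

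Some of these loci share sequence, and reads from shared stretches cannot be told apart. AT1G12300, AT1G12620 and AT1G12775 lie within chromosome 1 between 4183010 and 4355929 and are 86.6 to 90.3% identical to one another. Of their 21-base windows 27.4%, 29.1% and 30.8% also occurred elsewhere in the genome. AT1G25025 is 777 bases long and identical to the start of AT1G25180 and to AT1G25112, and AT1G24851 is 99.7% identical to AT1G25180 over 1827 bases. All 21-base windows of AT1G25025 and AT1G25180 (100%) occurred elsewhere, and how reads with several positions were counted is not given in the sources used here. DEG6 had 26.7% such windows, and the other 9 loci had 0.337 to 4.95%. AT1G12775 overlaps UGE1, a galactose epimerase gene, on the opposite strand, and MIR822 overlaps AT5G03553 on the opposite strand. Whether counting used strand is not given, so reads of such partners cannot be separated. UGE1 held 13.1 and 6.09 normalized reads of 21 nt in dcl4-2 on MS and MS-N, against 13.9 and 2.33 in Col-0 on these media.

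At 21 nt the loci summed to 116 and 172 normalized reads in dcl4-2 on MS and MS-N, against 965 and 1529 in Col-0 on these media. In the fit over 19385 loci all 15 were lower in dcl4-2 on both media, where 1.27% of loci passed in either direction on MS (0.769% lower) and 4.58% on MS-N (2.26% lower), and nothing is read from this, since the rule fixed it. The folds ran from 4.02-fold lower for DEG6 on MS to 60.7-fold lower for AT5G16640 on MS, where 1 read stood behind the dcl4-2 value (95% counting interval 10.6 to 2430). Per kb of transcript MIR822 was highest, with 95.8 and 206 normalized reads per kb in dcl4-2 on MS and MS-N, against 414 and 915 in Col-0 on these media. In Col-0 on MS the other loci held 10.5 to 77.9 normalized reads per kb, DEG6 and AT2G32291 (70.2) highest.

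MIR822 held 28.6, 32.3 and 35.9 normalized reads of 21 nt in dcl4-2 on MS, against 150, 125 and 144 in Col-0 on MS. On MS-N it held 57.1, 86.8 and 64.6 in dcl4-2, against 339, 210 and 376 in Col-0. It held more normalized 21-nt reads in dcl4-2 than any other member. As a ratio of dcl4-2 to Col-0 on MS, DEG6 (0.249) and GAE6 (0.239) stood above MIR822 (0.232). On MS-N the ratios were 0.0673 for DEG6, 0.194 for GAE6 and 0.225 for MIR822. DEG6 was uneven, with 13.8, 24.5 and 0 normalized reads in dcl4-2 on MS, against 43.0, 61.6 and 49.6 in Col-0 on MS. The genotypes did not overlap at MIR822 or DEG6, and nothing is read from this, since the rule used these values.

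**Figure D1:**
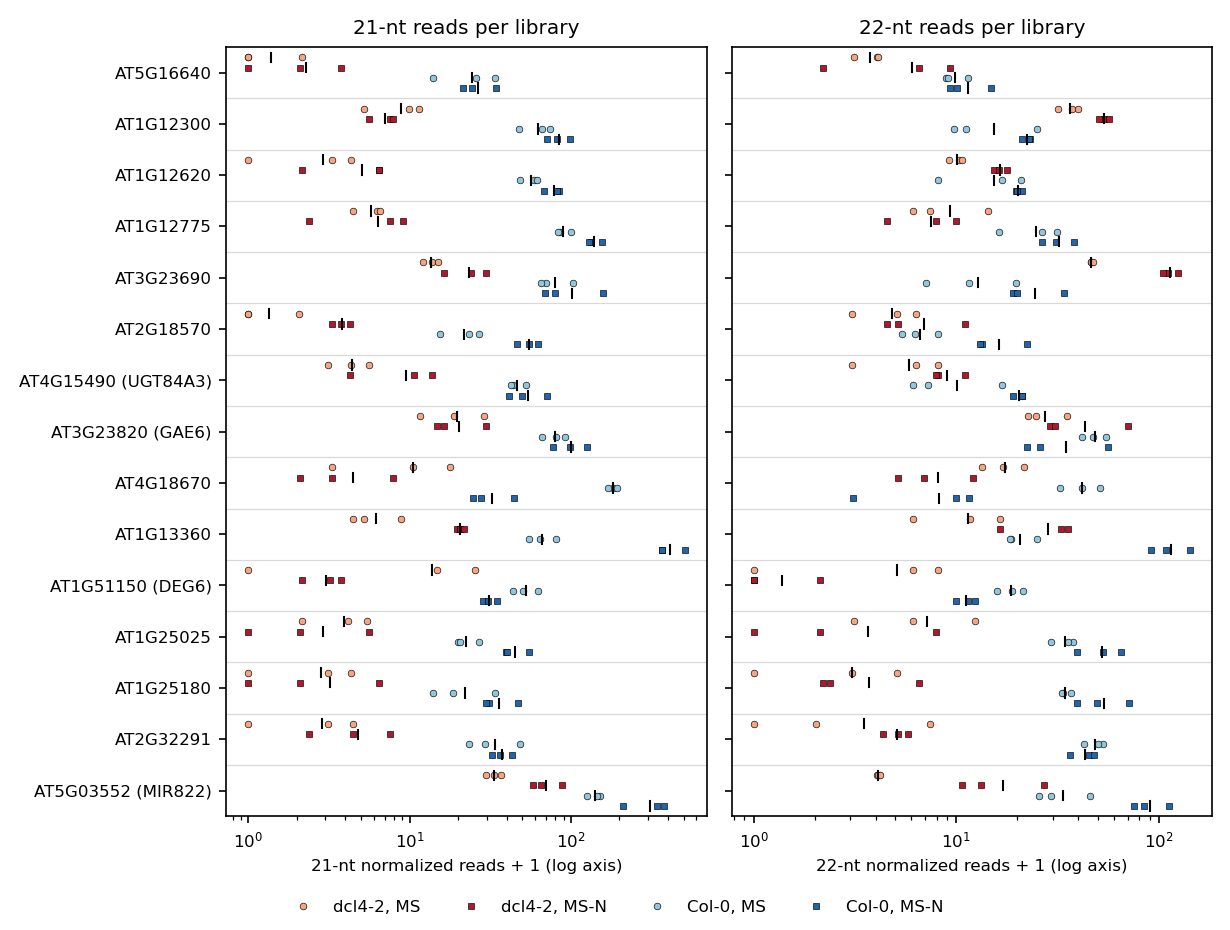
Normalized 21-nt reads (left) and 22-nt reads (right) plus 1 of each of the 15 loci, 1 point per library, on log axes, with dcl4-2 in reds and Col-0 in blues, circles for MS and squares for MS-N, and a black tick for the group mean. At 21 nt dcl4-2 lies left of Col-0 at all loci by the rule, while at 22 nt AT1G12300 and AT3G23690 lie right of Col-0 (35.4 against 14.3 and 45.5 against 11.8 on MS).

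At 22 nt the loci split. On MS 2 were higher in dcl4-2, 6 were lower and 7 did not pass the test, where 1.44% of 20147 loci passed in either direction (0.869% higher and 0.571% lower). On MS-N 2 were higher, 7 lower and 6 did not pass, where 6.29% passed (4.16% higher and 2.13% lower). The median log2 change of the 15 loci was -1.27 on MS and -1.31 on MS-N, beside -0.01 and 0.32 over all loci tested. The test was limma on log2(normalized reads + 1) with Benjamini-Hochberg adjustment over all loci and a threshold of 0.05, and log2 changes on this scale understate the change of loci with few reads.

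The 2 loci that were higher were AT3G23690 and AT1G12300. AT3G23690, the bHLH gene with the miR393 site shown above, held 45.0, 45.3 and 46.1 normalized reads of 22 nt in dcl4-2 on MS, against 10.5, 6.11 and 18.8 in Col-0 on MS. On MS-N it held 110, 123 and 104 in dcl4-2, against 33.2, 18.0 and 18.9 in Col-0. All dcl4-2 libraries lay above all Col-0 libraries of the same medium. The ratio of means was 3.85-fold higher on MS (log2 1.98 ± 0.30 SE, adjusted p = 1.29e-05, limma) and 4.81-fold higher on MS-N (log2 2.27 ± 0.30 SE, adjusted p = 3.25e-07, limma). The MS call ended without a variance trend (adjusted p = 0.0742, limma) and in a fit of only the 2 groups compared (adjusted p = 0.197, limma), while the MS-N call held in all 18 alternatives.

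AT1G12300 held 38.9, 30.9 and 36.4 normalized reads of 22 nt in dcl4-2 on MS, against 8.78, 10.2 and 24.0 in Col-0 on MS, and the groups did not overlap. On MS-N it held 52.4, 55.9 and 49.9 in dcl4-2, against 22.1, 20.05 and 21.9 in Col-0. Both differences passed, with 2.47-fold higher means on each medium (MS log2 1.37 ± 0.31 SE, adjusted p = 0.00549; MS-N log2 1.27 ± 0.31 SE, adjusted p = 0.00669, limma). The MS call ended when MS library 1 or 2 of Col-0 was left out (adjusted p = 0.0979 and 0.0725, limma), without a variance trend (adjusted p = 0.245) and with only the 2 groups compared (adjusted p = 0.335). The MS-N call ended without a variance trend (adjusted p = 0.111, limma), under microRNA scaling, which sets the summed microRNA reads of every library equal (log2 0.50, adjusted p = 0.388, limma), and under trimmed-mean scaling (adjusted p = 0.0568, limma).

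Its 2 neighbours had other 22-nt values. AT1G12775, 89.0% identical to AT1G12300, held 5.12, 13.4 and 6.43 normalized reads of 22 nt in dcl4-2 on MS, against 25.5, 15.3 and 30.3 in Col-0 on MS, and 8.92, 3.57 and 6.93 in dcl4-2 on MS-N, against 37.3, 25.6 and 30.2 in Col-0 on MS-N. It was lower on MS (2.85-fold, log2 -1.46, adjusted p = 0.0325) and on MS-N (4.79-fold, log2 -2.15, adjusted p = 1.22e-04, limma). The MS call ended when any 1 of 7 libraries was left out, which were MS libraries 1 and 3 of dcl4-2, MS libraries 1 and 3 of Col-0 and all 3 MS-N libraries of Col-0 (adjusted p 0.0568 to 0.247, limma). It also ended with a pseudocount of 0.1, without a variance trend and with only the 2 groups compared (adjusted p 0.108 to 0.346, limma). AT1G12620 held 9.03 ± 0.753 and 15.4 ± 1.24 normalized reads in dcl4-2 on MS and MS-N, against 14.3 ± 6.5 and 19.2 ± 0.741 in Col-0 on these media, and did not pass (adjusted p = 0.703 on MS and 0.667 on MS-N, limma). Of the same kind, AT5G16640 held 2.77 ± 0.540 and 5.03 ± 3.59 in dcl4-2 on MS and MS-N, against 8.83 ± 1.41 and 10.4 ± 3.0 in Col-0 on these media, and did not pass (adjusted p = 0.194 and 0.161, limma).

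The near-identical pair and the pseudogene were lower at 22 nt as well as at 21 nt. AT1G25180 held 2.05, 4.11 and 0 normalized reads of 22 nt in dcl4-2 on MS, against 32.5, 35.7 and 32.4 in Col-0 on MS, and was 16.3-fold lower (log2 -3.79 ± 0.46 SE, adjusted p = 7.38e-08, limma). On MS-N it held 5.58, 1.19 and 1.39 in dcl4-2, against 70.5, 48.4 and 38.5 in Col-0, and was 19.3-fold lower (log2 -4.00, adjusted p = 1.22e-08). AT1G25025, with no window of its own, was 5.37-fold lower on MS (log2 -2.46, adjusted p = 7.89e-04) and 19.2-fold lower on MS-N (log2 -4.33, adjusted p = 3.84e-09, limma). The MS call of AT1G25025 ended with a pseudocount of 0.1 (adjusted p = 0.240), without a variance trend (adjusted p = 0.155) and with only the 2 groups compared (adjusted p = 0.218, limma), and that of AT1G25180 ended with only the 2 groups compared (adjusted p = 0.122, limma). AT1G25025 matches the first 777 of the 1827 bases of AT1G25180, so the 2 entries are not independent.

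AT2G32291, a transcribed pseudogene 75.9% identical over 307 bases to the F-box gene DOR, held 1.02, 0 and 6.43 normalized reads of 22 nt in dcl4-2 on MS, against 51.8, 48.9 and 41.8 in Col-0 on MS. On MS-N it held 3.35, 4.76 and 4.16 in dcl4-2, against 35.2, 44.2 and 46.8 in Col-0. It was 19.1-fold lower on MS (log2 -4.29 ± 0.44 SE, adjusted p = 8.78e-10) and 10.3-fold lower on MS-N (log2 -3.08, adjusted p = 1.82e-06, limma), with no overlap of genotypes. The MS call ended with only the 2 groups compared (adjusted p = 0.154, limma).

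MIR822 and DEG6 were also lower at 22 nt. MIR822 held 3.07, 3.09 and 3.21 normalized reads of 22 nt in dcl4-2 on MS, against 44.8, 24.4 and 28.2 in Col-0 on MS, and was 10.4-fold lower (log2 -2.97 ± 0.34 SE, adjusted p = 1.48e-08, limma). On MS-N it held 12.3, 26.2 and 9.70 in dcl4-2, against 74.6, 83.7 and 111 in Col-0, and was 5.59-fold lower (log2 -2.51, adjusted p = 5.79e-07, limma). The sets of libraries were apart on both media. DEG6 held 7.17, 5.14 and 0 in dcl4-2 on MS, against 14.9, 20.4 and 17.8 in Col-0 on MS (4.31-fold lower, log2 -2.33, adjusted p = 0.0132, limma). On MS-N DEG6 rested on 1 read in dcl4-2, against 43 reads in Col-0, a ratio 27.5-fold lower with a 95% counting interval of 4.68 to 1111 (log2 -3.12, adjusted p = 1.38e-04, limma). The MS call of DEG6 ended when MS library 3 of dcl4-2 or any MS library of Col-0 was left out (adjusted p 0.0634 to 0.233, limma). It also ended with a pseudocount of 0.1, without a variance trend and with only the 2 groups compared (adjusted p 0.172 to 0.496, limma).

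AT1G13360 held 34.6, 15.5 and 31.9 normalized reads of 22 nt in dcl4-2 on MS-N, against 142, 89.9 and 108 in Col-0 on MS-N, and was 4.14-fold lower (log2 -2.07 ± 0.33 SE, adjusted p = 1.49e-05, limma). On MS it held 15.4, 5.14 and 10.7 in dcl4-2, against 17.6, 17.3 and 24.0 in Col-0, and did not pass (log2 -0.95, adjusted p = 0.175, limma). The remaining coding genes with a named product, AT4G18670, GAE6, UGT84A3 and AT2G18570, did not pass on either medium. AT4G18670 held 16.3 ± 4.07 normalized reads in dcl4-2 on MS, against 40.7 ± 9.34 in Col-0 on MS (adjusted p = 0.137), and 7.09 ± 3.64 in dcl4-2 on MS-N, against 7.21 ± 4.51 in Col-0 on MS-N (adjusted p = 0.923, limma). GAE6 had log2 -0.83 on MS and 0.31 on MS-N, UGT84A3 -0.74 and -1.19, and AT2G18570 -0.49 and -1.31 (adjusted p 0.0783 to 0.796, limma).

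**Figure D2:**
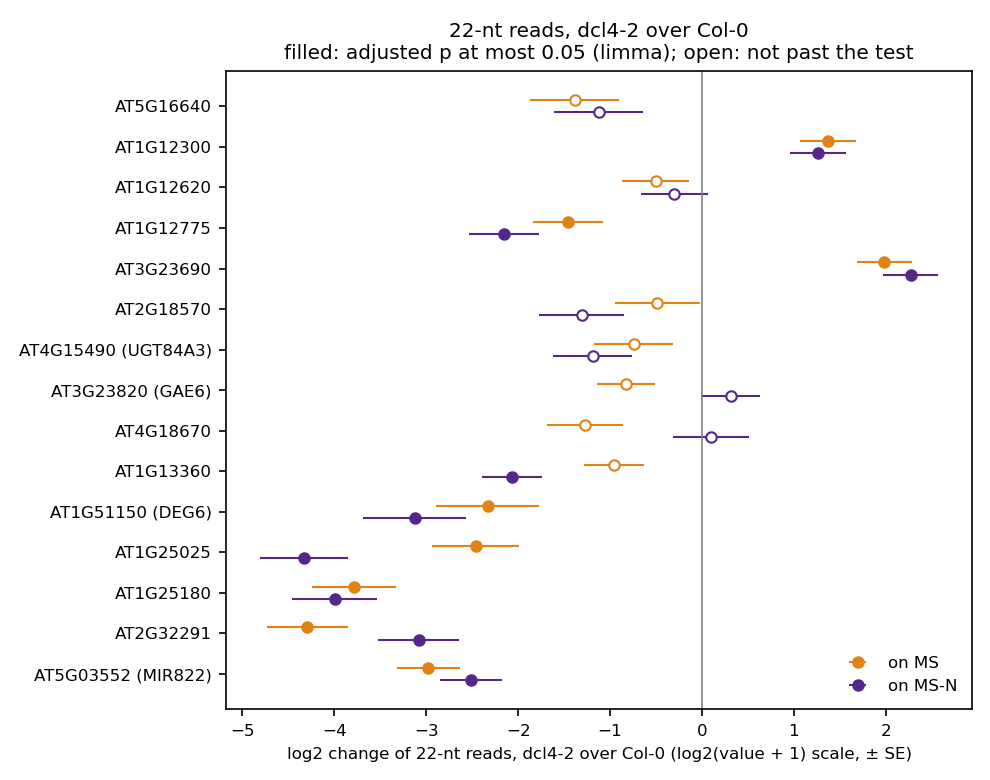
log2 change of 22-nt reads, dcl4-2 over Col-0, of each locus on MS (orange) and MS-N (purple), with bars for ± 1 SE of the limma fit on 12 libraries, and filled points for an adjusted p of at most 0.05. AT1G12300 (1.37 and 1.27) and AT3G23690 (1.98 and 2.27) are the filled points right of 0, and the pair AT1G25025 and AT1G25180, AT2G32291, DEG6, MIR822 and AT1G12775 are filled left of 0 on both media.

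The share of 22-nt reads among all 21- and 22-nt reads of a locus is given as a description and supports nothing by itself, since the rule set the 21-nt part low in dcl4-2. A higher share in dcl4-2 was thereby fixed wherever 22-nt reads fell by less than 21-nt reads. At 10 loci the dcl4-2 interval lay above the Col-0 interval on both media. Of these AT1G12300 and AT3G23690 alone had a higher mean of 22-nt reads in dcl4-2 on MS. On MS-N the mean of GAE6 was also higher in dcl4-2 (42.3 against 33.9), which did not pass (adjusted p = 0.603, limma). Intervals of the share were not computed over all loci, so whether the count of 10 is particular to the members was not tested. The intervals are exact binomial (Clopper-Pearson) 95% intervals over the pooled reads of 3 libraries, and they cover counting error only. The shares of these 10 loci ran from 60.3 to 91.7% in dcl4-2 on MS and from 48.8 to 89.7% in dcl4-2 on MS-N, against 12.4 to 36.3% in Col-0 on MS and 17.7 to 28.2% in Col-0 on MS-N. AT3G23690 had 79.4% (72.4 to 85.3) in dcl4-2 on MS, against 12.4% (8.82 to 16.7) in Col-0 on MS, and AT1G12300 had 82.9% (75.1 to 89.1), against 17.7% (13.1 to 23.1).

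At the other 5 loci the intervals overlapped. AT1G25025, AT1G25180 and AT2G32291 had 69.2, 54.5 and 58.3% of 22-nt reads in dcl4-2 on MS, against 60.2, 59.9 and 58.8% in Col-0, where most of their reads were already of 22 nt. DEG6 had 25.5% (13.9 to 40.3) in dcl4-2 on MS, against 24.8% (19.2 to 31.1) in Col-0 on MS. MIR822 had 9.38% (4.38 to 17.1) in dcl4-2 on MS, against 18.6% (15.4 to 22.1) in Col-0 on MS, and 18.7% (13.7 to 24.6) in dcl4-2 on MS-N, against 21.8% (19.8 to 23.8) in Col-0 on MS-N. With all 15 loci pooled the share was 62.4% and 63.9% in dcl4-2 on MS and MS-N, against 26.3% and 25.3% in Col-0. Loci with many reads weigh most in this pool. In dcl4-2 on MS-N, AT3G23690 gave 277 of the 757 reads of 22 nt. In Col-0 on MS-N, AT1G13360 gave 1816 of the 6729 reads of 21 nt.

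**Figure D3:**
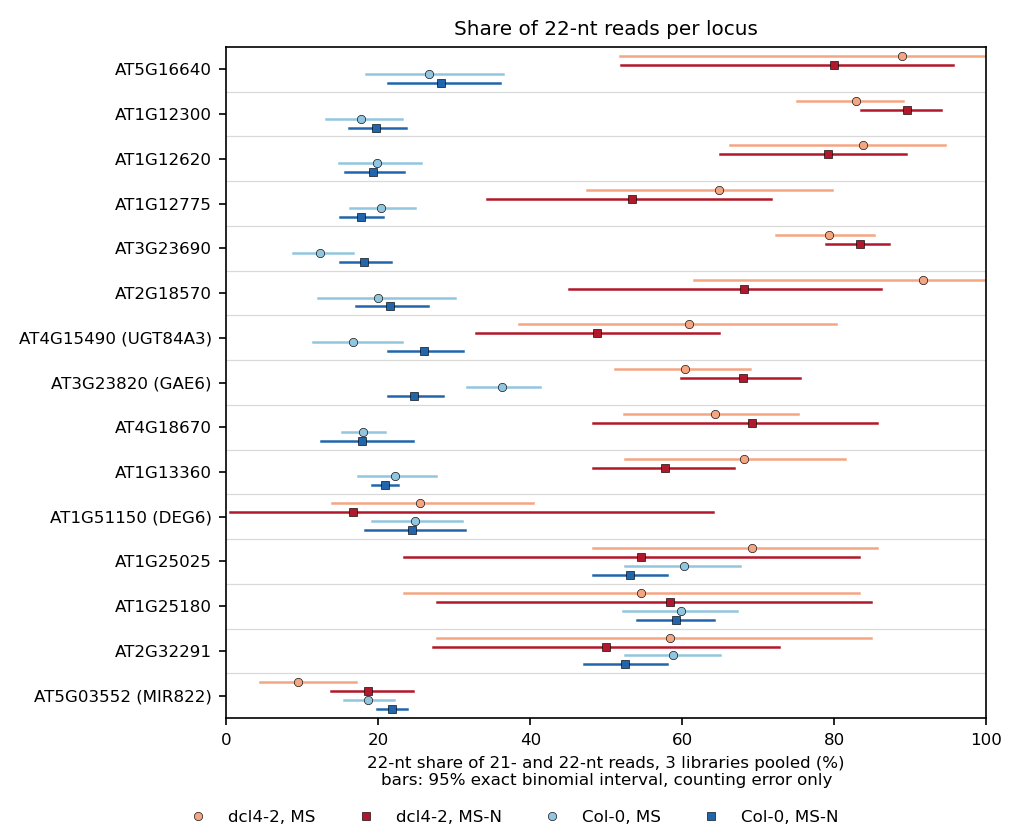
Share of 22-nt reads among the 21- and 22-nt reads of each locus, in percent, with reads of 3 libraries pooled and bars for the exact binomial 95% interval, dcl4-2 in reds and Col-0 in blues. In the upper 10 rows dcl4-2 lies right of Col-0 (AT1G12300 at 82.9% against 17.7% on MS), and in the lower 5 rows the intervals overlap (DEG6 at 25.5% against 24.8% on MS).

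Between the media, a few loci passed the test and most did not pass, which does not show that those were unchanged. At 22 nt, AT1G13360, AT3G23690 and MIR822 were higher and AT4G18670 was lower on MS-N in both genotypes, 4 of 15 loci in each. Of all loci tested 15.7% passed in dcl4-2 (9.89% higher and 5.77% lower) and 6.35% in Col-0 (1.81% higher and 4.54% lower). At 21 nt, whose levels but not their ratio between media the rule used, AT1G13360 and MIR822 were higher and AT4G18670 lower in both genotypes, and AT2G18570 was higher in dcl4-2, which made 4 of 15 in dcl4-2 and 3 of 15 in Col-0, where 13.1% of all loci (8.47% higher and 4.66% lower) and 5.94% (2.08% higher and 3.86% lower) passed. The median log2 change of the 15 loci was 0.56 at 22 nt in dcl4-2 and 0.59 in Col-0, beside 0.32 and 0.02 over all loci.

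AT1G13360 was higher on MS-N at both lengths in both genotypes. At 21 nt it held 18.7, 19.7 and 20.6 normalized reads in dcl4-2 on MS-N, against 4.24, 7.81 and 3.48 in dcl4-2 on MS, and 364, 507 and 365 in Col-0 on MS-N, against 63.7, 79.3 and 53.7 in Col-0 on MS. Neither genotype had overlapping media. The change was 3.80-fold in dcl4-2 (log2 1.80 ± 0.29 SE, adjusted p = 5.44e-06) and 6.28-fold in Col-0 (log2 2.63 ± 0.29 SE, adjusted p = 1.72e-10, limma). At 22 nt it was 2.62-fold higher in dcl4-2 (log2 1.34, adjusted p = 0.00306) and 5.76-fold higher in Col-0 (log2 2.46, adjusted p = 1.52e-07, limma). The 22-nt call in dcl4-2 ended without a variance trend (adjusted p = 0.0661, limma) and with only the 2 groups compared (adjusted p = 0.101, limma).

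MIR822, whose values on both media stand above, was 2.15-fold higher on MS-N in dcl4-2 (log2 1.07 ± 0.24 SE, adjusted p = 0.00131) and 2.21-fold higher in Col-0 (log2 1.10 ± 0.24 SE, adjusted p = 0.00113, limma) at 21 nt. At 22 nt it was 5.14-fold higher in dcl4-2 (log2 1.93, adjusted p = 4.67e-05) and 2.76-fold higher in Col-0 (log2 1.47, adjusted p = 0.00273, limma). The 22-nt call in Col-0 ended when MS-N library 3 of Col-0 was left out (log2 1.30, adjusted p = 0.0534, limma) and without a variance trend (adjusted p = 0.0742, limma). The 21-nt calls ended without a variance trend in dcl4-2 (adjusted p = 0.126) and in Col-0 (adjusted p = 0.196, limma), and in dcl4-2 also with only the 2 groups compared (adjusted p = 0.0525, limma).

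AT3G23690 rose at 22 nt, 2.47-fold in dcl4-2 (log2 1.28, adjusted p = 0.00202), with no overlap, and 1.97-fold in Col-0 (log2 1.0, adjusted p = 0.0322, limma), where the libraries overlapped. The Col-0 call ended when MS-N library 1 or 3 or MS library 1 or 2 of Col-0 was left out (adjusted p 0.0526 to 0.311, limma), and with a pseudocount of 0.1, without a variance trend or with only the 2 groups compared (adjusted p 0.0673 to 0.263, limma). The dcl4-2 call ended without a variance trend (adjusted p = 0.0635, limma). At 21 nt its change did not pass (adjusted p = 0.103 in dcl4-2 and 0.714 in Col-0, limma).

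AT4G18670 moved the other way. At 21 nt it held 1.10, 2.31 and 6.88 normalized reads in dcl4-2 on MS-N, against 9.54, 16.7 and 2.32 in dcl4-2 on MS, and 23.6, 43.7 and 26.7 in Col-0 on MS-N, against 182, 193 and 168 in Col-0 on MS. It was 2.78-fold lower on MS-N in dcl4-2, with overlapping libraries (log2 -1.17, adjusted p = 0.0494), and 5.79-fold lower in Col-0, with none (log2 -2.54 ± 0.41 SE, adjusted p = 4.80e-06, limma). At 22 nt it was 2.30-fold lower in dcl4-2 (log2 -1.16, adjusted p = 0.0466) and 5.65-fold lower in Col-0 (log2 -2.53, adjusted p = 1.16e-05, limma). The dcl4-2 call at 21 nt ended when any 1 of 10 libraries was left out, all but library 3 of dcl4-2 on each medium (adjusted p 0.0608 to 0.370, limma). At 22 nt it ended with any 1 of 9 left out, all but MS library 2 and MS-N library 1 of dcl4-2 and MS-N library 2 of Col-0 (adjusted p 0.0512 to 0.178, limma). Both calls also ended with a pseudocount of 0.1, without the filter, without a variance trend and with only the 2 groups compared (adjusted p 0.0584 to 0.400, limma), and the 21-nt call under microRNA scaling (adjusted p = 0.0863, limma).

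AT2G18570 held 3.30, 2.31 and 2.75 normalized reads of 21 nt in dcl4-2 on MS-N, against 1.06, 0 and 0 in dcl4-2 on MS, a ratio of 7.89 with a 95% counting interval of 1.01 to 356, since only 1 read stood behind MS (log2 1.57, adjusted p = 0.0109, limma). This call ended with only the 2 groups compared (adjusted p = 0.147, limma). In Col-0 it held 53.7, 61.8 and 45.4 on MS-N, against 25.8, 22.4 and 14.5 on MS, and did not pass (adjusted p = 0.0543, limma).

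**Figure D4:**
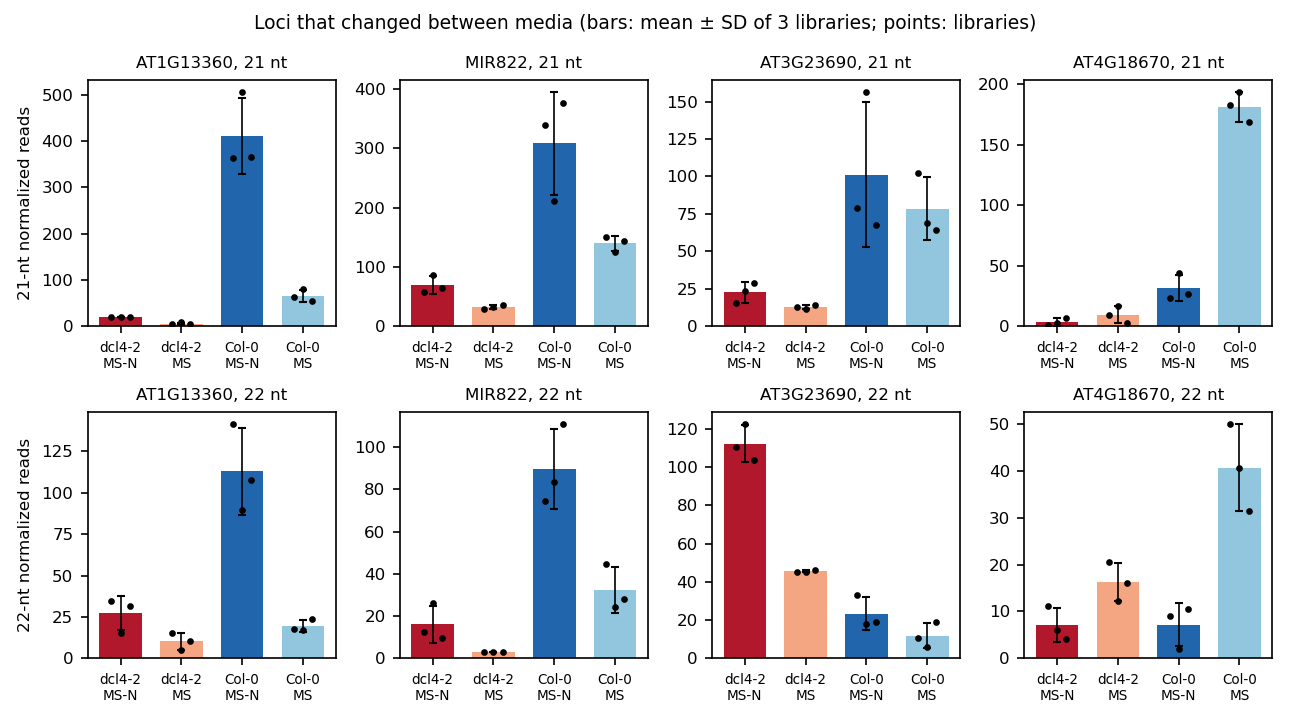
Normalized 21-nt reads (top) and 22-nt reads (bottom) of AT1G13360, MIR822, AT3G23690 and AT4G18670, with dcl4-2 bars before Col-0 bars and MS-N before MS, bars for the mean, error bars for ± SD and points for the 3 libraries of a group. AT1G13360 at 21 nt stands at 412 in Col-0 on MS-N, against 65.6 on MS, and AT4G18670 stands at 31.3 against 181.

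The difference between the genotypes in their response to MS-N was tested as an interaction. At 22 nt 0 of 15 loci passed (limma), 4 had an unadjusted p of at most 0.05, and 2.1% of all loci passed (1.8% higher and 0.298% lower). The interaction estimates with the largest size were log2 -1.87 ± 0.67 SE for AT1G25025 and 1.37 ± 0.58 SE for AT4G18670 at 22 nt (adjusted p = 0.133 and 0.218, limma). For AT1G13360 the estimate was -1.11 ± 0.46 SE (adjusted p = 0.204), and at 21 nt 0 of 15 passed as well, with 2 at an unadjusted p of at most 0.05 and 0.449% of all loci passing (0.387% higher and 0.0619% lower). A p that misses the threshold does not show that the genotypes responded alike.

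The microRNA genes behind the sites shown above changed as follows. The 21-nt mean of MIR393b was 9569 and 3711 normalized reads in dcl4-2 on MS and MS-N, against 2437 and 1453 in Col-0 on these media, and was given no test, since its mean on MS in dcl4-2 could not be split into libraries. MIR393a held 171 ± 31.3 and 211 ± 24.6 in dcl4-2 on MS and MS-N, against 57.2 ± 5.18 and 111 ± 28.5 in Col-0 on these media, and was higher on both media (log2 1.55 and 0.94, limma). MIR400 held 1327 ± 58.1 and 279 ± 20.2 in dcl4-2 on MS and MS-N, against 638 ± 46.7 and 172 ± 12.6 in Col-0 on these media. MIR161, with means from 110702 to 213355, could not be split in any group. Of 13 microRNA genes known as triggers or regulators of this pathway, 8 were tested at 21 nt, and 6 were higher in dcl4-2 on MS and 8 on MS-N, with 0 lower. Of all loci 0.5% were higher on MS and 2.32% on MS-N. Under trimmed-mean scaling the counts of this list were 6 and 5, with 0 lower, and under microRNA scaling 2 and 2, with 1 lower on MS. MicroRNA scaling takes away any rise common to the microRNAs, so it cannot decide the direction of a list of microRNA genes. MIR393a did not pass under microRNA scaling on either medium (adjusted p = 0.109 and 0.907, limma). Under trimmed-mean scaling MIR393a passed on MS (log2 1.53, adjusted p = 1.12e-06, limma). On MS-N it did not pass under that scaling (log2 0.58, adjusted p = 0.124, limma). At 22 nt 10 were tested, with 0 called on MS and 7 higher on MS-N, where 4.16% of all loci were higher. The 7 became 4 under trimmed-mean scaling and 0 under microRNA scaling. On MS-N against MS, 4 of the list were higher and 1 lower at 21 nt in each genotype. Under trimmed-mean scaling 2 were higher in dcl4-2, and under microRNA scaling 2 in Col-0. At 22 nt 5 were higher and 1 lower in dcl4-2, against 3 higher and 1 lower in Col-0 (2 lower in dcl4-2 under both other scalings). Of all loci at 21 nt 8.47% were higher and 4.66% lower in dcl4-2, and 2.08% and 3.86% in Col-0. At 22 nt these were 9.89% and 5.77% in dcl4-2, and 1.81% and 4.54% in Col-0.

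Of 12 genes for siRNA production, 8 were tested at each length, and their small RNA was mostly sparse. The list also held DCL1, which makes most microRNAs. At 22 nt 2 were higher in dcl4-2 on MS, the effector protein genes AGO1 and AGO2. On MS-N 4 were higher, AGO1, AGO2, DCL1 and DCL2, with 0 lower on either medium. Under microRNA scaling these counts were 2 and 2 of 6 tested. Of all loci 0.869% were higher on MS and 4.16% on MS-N. At 21 nt 0 were higher and 2 lower on MS, AGO1 and DCL1. On MS-N 1 was higher (AGO2) and 1 lower (AGO1), and AGO2 was not called under microRNA scaling. At this length 0.769% of all loci were lower on MS, and 2.32% were higher and 2.26% lower on MS-N. On MS-N against MS at 22 nt, 5 of 8 were higher in dcl4-2 and 0 of 8 in Col-0, where 9.89% and 1.81% of all loci were higher. These counts rest on the scaling, since they were 4 and 1 of 6 under trimmed-mean scaling and 2 and 2 of 6 under microRNA scaling. At 21 nt 2 were higher in dcl4-2 and 1 in Col-0 under all 3 scalings, where 8.47% and 2.08% of all loci were higher. At 22 nt, AGO2, an effector protein gene, held 46.5 ± 3.05 and 175 ± 33.8 normalized reads in dcl4-2 on MS and MS-N, against 6.68 ± 3.35 and 11.3 ± 3.48 in Col-0 on these media. DCL4 itself held 1.04 ± 0.0263 and 7.17 ± 3.48 normalized reads of 22 nt in dcl4-2 on MS and MS-N, against 4.56 ± 0.595 and 5.05 ± 2.19 in Col-0 on these media. DCL4 did not pass between genotypes (adjusted p = 0.213 on MS and 0.680 on MS-N, limma). Of 4 genes known as tasiRNA targets 1 was tested and none passed at either length, and tasiRNA precursors were not in the tables.

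The edges of the rule were close. Just inside the fold stood MIR822, GAE6 and DEG6, whose larger dcl4-2 to Col-0 ratio was 0.232, 0.239 and 0.249, and just outside stood the pseudogenes AT3G06437 and AT1G47860 and CWLP with 0.296, 0.299 and 0.3001. Just inside the level stood AT2G18570, AT1G25180 and AT1G25025 with lower Col-0 means of 20.9, 21.1 and 21.5, and just outside AT5G15420, AT1G24851 and AT1G25112 with 19.5, 19.7 and 19.7. AT1G24851 and AT1G25112 are near-copies of AT1G25180 and AT1G25025, and AT1G47860 and AT3G06437 share 80.1% over 1105 bases and 92.8% over 349 bases with AT1G25180. At 22 nt AT1G24851 held 4.79 and 2.37 normalized reads in dcl4-2 on MS and MS-N, against 30.4 and 38.9 in Col-0 on these media. AT5G15420 held 16.2 and 24.2 in dcl4-2 on MS and MS-N, against 87.9 and 134 in Col-0 on these media.

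Chloroplast reads moved with the medium, and their part in the results was not tested. Over 88 chloroplast genes the 22-nt sum was 27504 and 9452 normalized reads in dcl4-2 on MS and MS-N, against 25927 and 3865 in Col-0 on these media. The authors' deposited table has 2 members higher and 7 lower for 22 nt on MS-N between genotypes, all 9 in the same direction as above. For the media at 22 nt the authors' deposited table has 3 higher and 0 lower in dcl4-2 and 3 higher and 1 lower in Col-0, of which 3 and 4 were also called here. At 21 nt the authors' deposited table differs from the calls above at 3 loci. AT2G18570 has an adjusted p of 0.184 in dcl4-2 and 0.0107 in Col-0 in the authors' deposited table, AT4G18670 has 0.123 in dcl4-2, and DEG6, not called here, has 0.0246 in dcl4-2.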

How the data were processed

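Small RNA of 12 libraries was measured by sequencing. Per the submitters' processing notes, Bowtie 1.2.2 and SAMtools 1.9 were used on TAIR10, and the counting rule is not given in the sources used here. The authors deposited a signal per locus and group at 21 and 22 nt, named TPM in the header, although the values are means over 3 libraries of reads scaled by size factors. The deposited columns also hold the authors' log2 ratios and p-values, with no test named, and the deposited class table holds rpm per library.

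Each group mean was split into the reads of its 3 libraries, since every mean is a sum of 3 whole numbers times a step of each library. In each group over 99% of loci above 0 were split, and 34 loci at 21 nt and 13 at 22 nt, abundant ones, stayed unsplit and out of the tests. The libraries carry no replicate number and were numbered by size factor. The method was tested on simulated data. limma 3.58.1 in R 4.3.3 was run on log2(value + 1) in 1 fit over 4 groups, on loci that reached 1 in 3 or more libraries, with calls at an adjusted p of 0.05 (19385 and 20147 loci). Of the locus identifiers 31722 matched a RefSeq name. All 15 members are named. Members and lists were chosen with earlier results of these data known. Alternatives were a pseudocount of 0.1, no filter, no variance trend, only the 2 groups compared, trimmed-mean scaling, microRNA scaling and leaving out each library. Sequence likeness was taken from BLAST 2.17.0, on RefSeq TAIR10.1. Shares of 22-nt reads have exact binomial 95% intervals, and counting intervals do not cover variation between seedlings.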

Additional observations from a re-analysis of the deposited data

How the results depend on the processing

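Of 32 calls of single loci between groups 15 held in all 18 alternatives, and 0 changed sign. With a pseudocount of 0.1 the 8 calls between genotypes at 22 nt on MS (2 higher and 6 lower) became 5 (2 higher and 3 lower), without a variance trend 3 (0 higher and 3 lower), and with only the 2 groups compared 1 (0 higher and 1 lower). Both higher calls on MS, AT3G23690 and AT1G12300, thus ended in the last 2 of these fits. Leaving out 1 library gave 5 to 8, and 9 to 10 in place of 9 on MS-N. For the media at 22 nt, 4 calls in dcl4-2 became 1 without a variance trend and 2 with only the 2 groups compared, with 3 to 6 when 1 library was left out, and 4 in Col-0 became 2 without a variance trend, with 2 to 5 when 1 was left out. For the interaction, 0 calls became 2 under microRNA scaling, with 0 to 2 when 1 library was left out. At 21 nt the 4 calls between media in dcl4-2 became 2 without a variance trend and 1 with only the 2 groups compared (3 to 6 when 1 library was left out), and 3 in Col-0 became 6 with only the 2 groups compared (3 to 4). The cause was not tested. With only the 2 groups compared there were fewer libraries in the fit.

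Over all loci, 290 calls between genotypes at 22 nt on MS became 78 without a variance trend, 23 with only the 2 groups and 452 with microRNA scaling (139 higher and 313 lower, where 175 and 115 stood before), with 206 to 324 when 1 library was left out. On MS-N 1268 became 796 with a pseudocount of 0.1, 339 without a variance trend, 512 with only the 2 groups and 2299 with microRNA scaling (208 higher and 2091 lower, where 839 and 429 stood before), with 537 to 1528. The 3156 calls between media in dcl4-2 became 1236 with only the 2 groups (2373 to 3129), and 1279 in Col-0 had 864 to 1476. The 423 interaction calls became 150 with a pseudocount of 0.1 and 2 without a variance trend (176 to 584). At 21 nt 2544 calls in dcl4-2 became 695 with only the 2 groups (1840 to 2441), and 1151 in Col-0 became 697 with a pseudocount of 0.1 (772 to 1257). MicroRNA scaling moved the median log2 change of all loci between genotypes at 22 nt by -0.23 on MS and -0.43 on MS-N and at 21 nt by -0.56 and -0.47, and trimmed-mean scaling by -0.03 and -0.21 at 22 nt. The 15 members became 8 with at most the Col-0 mean divided by 8, 36 with a level of 10 and 8 with a level of 40.

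No paired analysis was possible because the group means carry no replicate number. Values of single libraries rest on splitting group means, and a member had as few as 1 read in a group.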
